A study of Triticum aestivum with 10 samples.

Results

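A pair of gluten protein genes was followed across early seed development in bread wheat, the low molecular weight glutenin gene LOC543213 and LOC100125692, a gene for a b-type avenin-like protein. They were represented by all probe sets that the array's annotation assigns to them, 3 for LOC543213 and 4 for LOC100125692, or 7 of the 61179 tested probe sets and 2 of the 771 genes with a symbol. The RefSeq gene table of the IWGSC CS RefSeq v2.1 assembly gives LOC543213 the synonyms Glu-3, Glu-D3 and LMW-GS and places it on chromosome 1D. It gives LOC100125692 the synonyms ALP, avnlb and ALPb-4A1 and places it on chromosome 4A. Both genes were selected on their log2 values on the 10 arrays, in all 5 groups, so differences in these values between groups are given as a description and not tested.

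RNA from whole developing seeds of Redland, a winter wheat cultivar, was hybridised to Affymetrix wheat arrays. All plants had been vernalized as seedlings and grown in pots in a growth chamber, and florets were marked singly so that hours after fertilization (HAF) could be counted. Seeds of plants watered throughout (control) were sampled at 24, 48 and 72 HAF, and seeds of plants from which water was withheld (drought) at 48 and 72 HAF, with 2 arrays in each of the 5 groups. The descriptions set the start of drought at 24 HAF in one place and at 48 HAF in another, so drought seeds of 48 HAF had been without water for a day or had only entered the treatment. The labels number the arrays of each group as biological replicates and do not tie them to plants or pots.

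Gluten is the protein network that gives wheat dough its strength and stretch. Its glutenins are joined into large polymers by disulfide bonds between their cysteines, and low molecular weight glutenins, encoded at the Glu-3 loci, are the more numerous of the subunits in those polymers. Avenin-like proteins resemble the avenins of oat, carry many cysteines for their size and can enter the same polymers. Genes of both kinds are known as endosperm genes whose transcripts build up during grain filling, after the earliest stages of seed growth.

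The arrays did not all resemble their replicates. Over the 61179 probe sets the 2 arrays of a group correlated at r = 0.820 for control 24 HAF and at 0.951 to 0.987 for the other 4 groups. Control 24 HAF replicate 2 stood apart from all others (r at most 0.898), and its spiked-in hybridisation control BioB read 11.9 on the log2 scale against 4.01 to 6.97 elsewhere. Control 72 HAF replicate 2 and drought 72 HAF replicate 1 were nearly alike (r = 0.996), whereas control 72 HAF replicate 1 was closest to control 48 HAF replicate 2 (r = 0.982). Drought 72 HAF replicate 2 was less like the others, with r = 0.951 to its replicate and at most 0.959 to any array. Differences in gene level between groups that include control 24 HAF replicate 2, control 72 HAF replicate 1 or drought 72 HAF replicate 2 are given with and without that array.

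For the low molecular weight glutenin gene LOC543213, probe set Ta.160.2.S1_x_at gave the highest readings of the 3. At 48 HAF its log2 level was 5.63 and 5.68 on the control arrays and 5.36 and 5.30 on the drought arrays. At 72 HAF it was 5.69 and 6.97 in control seeds and 7.33 and 7.32 in drought seeds. The 24 HAF arrays read 5.40 and 7.68. Readings near 7 or above thus came from control 24 HAF replicate 2, control 72 HAF replicate 2 and both drought 72 HAF arrays, while control 72 HAF replicate 1 stayed within 0.0081 of the highest 48 HAF reading.

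Probe set Ta.160.1.S1_x_at was high on the same 4 arrays, at lower readings. It lay at 2.75 and 3.02 in control and 2.60 and 2.57 in drought seeds at 48 HAF. At 72 HAF it lay at 3.09 and 4.82 in control and 4.73 and 4.42 in drought seeds, and at 24 HAF at 2.80 and 5.64. Over the 10 arrays it correlated with Ta.160.2.S1_x_at at r = 0.977 (0.974 without control 24 HAF replicate 2), a description of arrays that share their scaling. In Affymetrix naming the ending x_at marks probe sets in which some probes match other transcripts, so both may read further glutenin genes of this large family. The RefSeq table lists other genes under the synonym Glu-3, LOC606388 on chromosome 1A and LOC100125697 on chromosome 1D, and each has 0 annotated probe sets here.

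The remaining glutenin probe set, Ta.160.2.A1_at, read 2.39 to 2.58 on the 4 arrays of 48 HAF. Its name gives the same transcript cluster as Ta.160.2.S1_x_at, 160.2, but the orientation letter A in place of S. Which strand it reads was not checked, and it was kept in the mean level of LOC543213. At 72 HAF it read 2.77 and 3.23 in control and 4.07 and 3.00 in drought seeds, and at 24 HAF 2.57 and 2.81. Drought 72 HAF replicate 1 was therefore the only array on which it passed 4, and control 24 HAF replicate 2, the highest array for the other glutenin probe sets, read below 3 of the 4 arrays of 72 HAF here. Without that array its correlation with Ta.160.1.S1_x_at was 0.862, against 0.661 with it.

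Among all 7 probe sets the widest range belonged to Ta.27777.1.S2_s_at of the avenin-like gene LOC100125692, 5.99 log2 units between its lowest and highest array. It read 2.87 and 3.13 in control and 3.09 and 3.02 in drought seeds at 48 HAF. At 72 HAF it read 3.34 and 8.74 in control seeds and 8.86 and 7.37 in drought seeds, and at 24 HAF 3.22 and 5.88. Set against the mean of the 4 arrays of 48 HAF, control 72 HAF replicate 2 was 52.5-fold higher, drought 72 HAF replicate 1 56.9-fold and drought 72 HAF replicate 2 20.2-fold, but control 72 HAF replicate 1 only 1.25-fold. These are ratios of readings: the 48 HAF readings lay at the 30.1st to 34.7th percentile of their arrays, and it was not measured whether they exceeded the background. The ending s_at marks probes shared by several transcripts, and such a probe set cannot tell close copies apart.

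Probe set Ta.27712.1.S1_at had its highest readings on the same 4 arrays, in the same order among them. Its log2 level was 3.93 and 4.21 in control and 3.95 and 4.02 in drought seeds at 48 HAF. It was 4.64 and 8.63 in control and 8.74 and 7.79 in drought seeds at 72 HAF, and 4.11 and 7.03 at 24 HAF. Its correlation with Ta.27777.1.S2_s_at was 0.993 over 10 arrays and 0.997 without control 24 HAF replicate 2. The fold over the 48 HAF mean was 24.3, 26.2 and 13.6 on the 3 arrays that read high at 72 HAF and 1.52 on control 72 HAF replicate 1.

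Probe set Ta.27777.1.S2_at read 2.72 and 2.85 in control and 2.46 and 2.50 in drought seeds at 48 HAF. At 72 HAF it read 3.03 and 6.27 in control and 6.35 and 4.89 in drought seeds. At 24 HAF it read 2.62 and 3.29, so the array that stood apart was only 1.57-fold above the 48 HAF mean here, against 8.00-fold for Ta.27712.1.S1_at and 7.22-fold for Ta.27777.1.S2_s_at. Probe sets assigned to the same gene thus gave unequal readings on control 24 HAF replicate 2.

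The remaining probe set assigned to LOC100125692, Ta.27777.1.S1_at, went the other way. It read 9.98 and 10.1 in control and 9.91 and 9.997 in drought seeds at 48 HAF. At 72 HAF it read 9.496 and 9.84 in control and 9.77 and 8.59 in drought seeds, and at 24 HAF 9.89 and 7.91. It was high on every array and lowest on the 2 arrays least like the others, control 24 HAF replicate 2 and drought 72 HAF replicate 2. Its correlation with the gene's other probe sets was negative, -0.452 with Ta.27712.1.S1_at, -0.355 with Ta.27777.1.S2_s_at and -0.132 with Ta.27777.1.S2_at. Without control 24 HAF replicate 2 these were -0.47, -0.42 and -0.35. Its pattern was also common: 7240 of 61172 other probe sets (11.8%) correlated with it above 0.9, against 382 (0.625%) for the mean of the gene's other 3 probe sets. Without that array the counts were 5300 (8.66%) and 698 (1.14%). Since it differed from the gene's other probe sets, which is a fact learned from the values, the differences in the level of the gene between groups are given below with and without it.

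**Figure D1:**
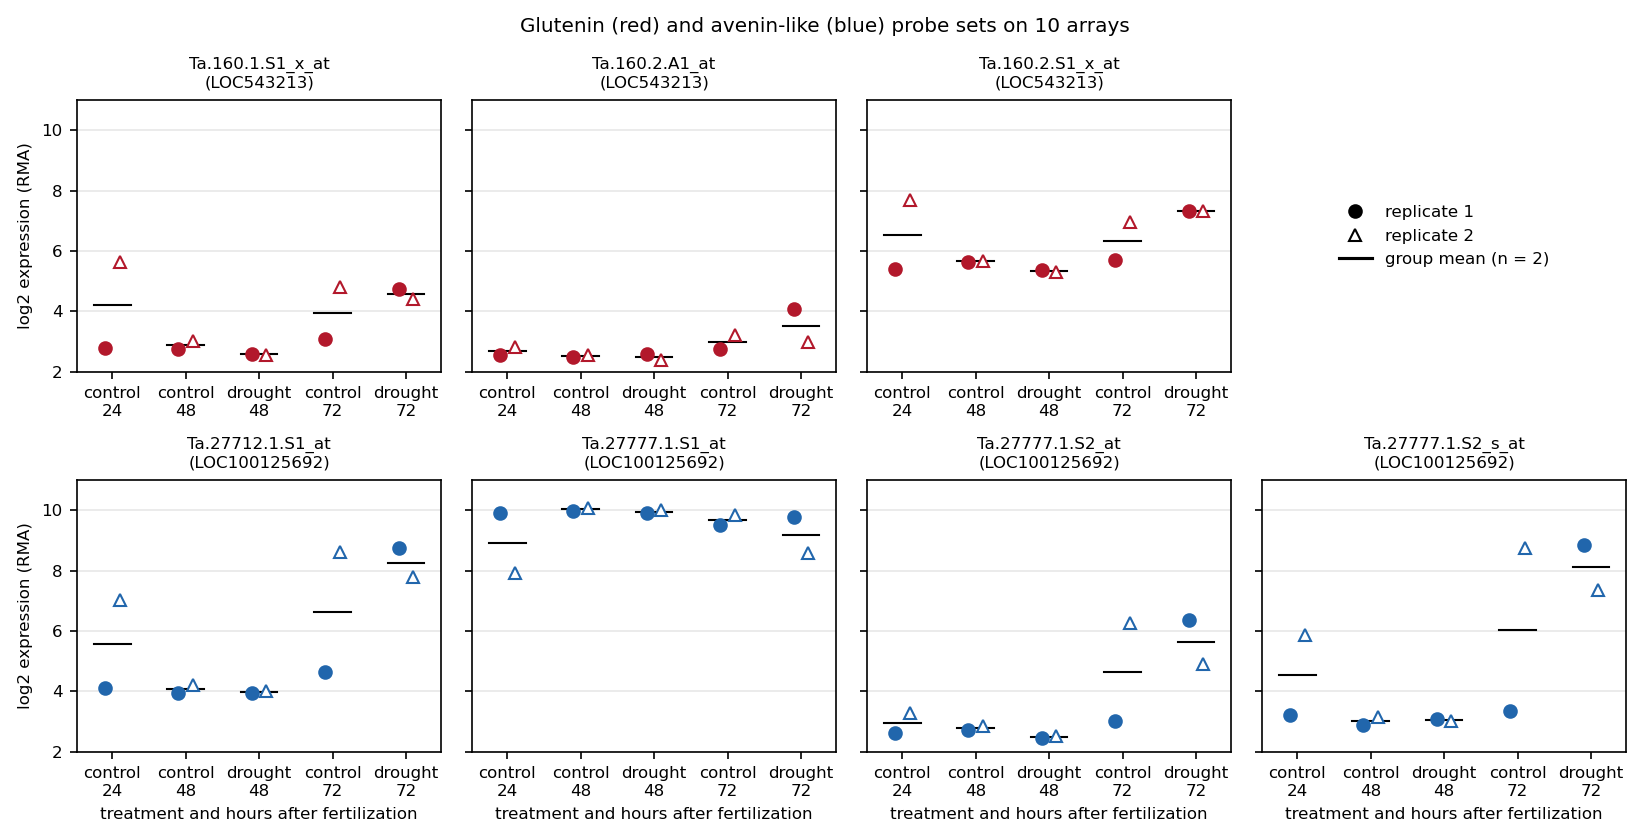
Log2 expression of the 3 probe sets of LOC543213 (red, top) and the 4 of LOC100125692 (blue, bottom) on each array, by treatment and hours after fertilization; filled circles are replicate 1, open triangles replicate 2 and bars the group means (n = 2). Of the 7 probe sets, 6 read low on all 4 arrays of 48 HAF and on control 72 HAF replicate 1 and higher on the other 72 HAF arrays, while Ta.27777.1.S1_at stayed between 7.91 and 10.1.

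Most of the early readings lay low within their arrays. At 48 HAF, Ta.160.1.S1_x_at, Ta.160.2.A1_at, Ta.27777.1.S2_at and Ta.27777.1.S2_s_at lay between the 20.6th and the 34.7th percentile of all probe sets of their array. Signal over background was not measured, so these may be readings without a detected transcript. Ta.27777.1.S2_s_at lay at the 92.4th percentile on control 72 HAF replicate 2, at the 93.0th on drought 72 HAF replicate 1 and at the 85.9th on drought 72 HAF replicate 2, but at the 37.4th on control 72 HAF replicate 1. Ta.160.2.A1_at reached no higher than the 49.1st percentile on any array.

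**Figure D2:**
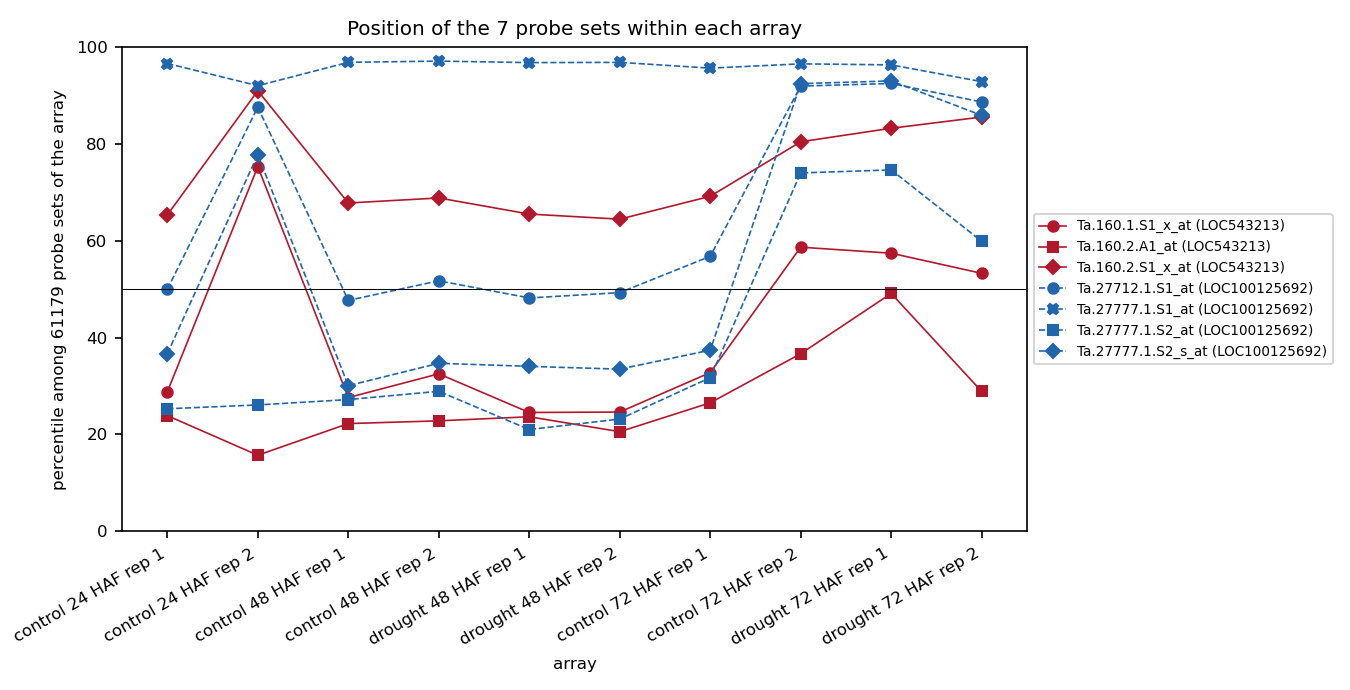
Percentile of each of the 7 probe sets among the 61179 probe sets of the same array (y axis), for the 10 arrays (x axis); red solid lines are LOC543213 and blue dashed lines LOC100125692, and lines only join points of one probe set. Ta.27712.1.S1_at and Ta.27777.1.S2_s_at moved from 47.7 to 51.7 and 30.1 to 34.7 at 48 HAF to 85.9 or above on 3 of the 4 arrays of 72 HAF.

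From 48 to 72 HAF in drought seeds, both genes were higher at the later time on both arrays. The level of LOC543213, the mean log2 value over its probe sets, was 3.47 ± 0.068 (SD, n = 2) at 48 HAF and 5.15 ± 0.33 (n = 2) at 72 HAF, a difference of 1.68. LOC100125692 went from 4.87 ± 0.024 to 7.80 ± 0.90 (n = 2 each), a difference of 2.93, or 4.16 without Ta.27777.1.S1_at. With drought 72 HAF replicate 2 left out the differences were 1.91 for LOC543213 and 3.56 for LOC100125692. With drought 72 HAF replicate 1 left out they were 1.45 and 2.29. The groups did not overlap for any of the 7 probe sets, 6 higher and 1 lower at 72 HAF, where 23.3% of all probe sets were higher without overlap and 21.2% lower. Means differed at least 2-fold upward for 6 of 7, against 3.07% of all probe sets. The median difference was 1.99 over the 7 and 0.06 over all probe sets.

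In watered seeds the same interval gave smaller differences and a wider spread at 72 HAF. LOC543213 was at 3.69 ± 0.091 at 48 HAF and 4.43 ± 0.82 at 72 HAF (n = 2 each), and LOC100125692 at 4.97 ± 0.13 and 6.75 ± 2.30. The differences of 0.74 and 1.78 were only a little larger than the pooled SDs of 0.58 and 1.63. Both control 72 HAF arrays lay above both control 48 HAF arrays for the 6 probe sets other than Ta.27777.1.S1_at and below them for that one, where 15.7% of all probe sets were higher without overlap and 17.3% lower. For control 72 HAF replicate 1 the margin was small, 0.0081 for Ta.160.2.S1_x_at and 0.42 for Ta.27712.1.S1_at. Without Ta.27777.1.S1_at the difference of LOC100125692 was 2.49. With control 72 HAF replicate 1 left out the differences were 1.32 and 3.40, and with control 72 HAF replicate 2 left out 0.16 and 0.15.

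Taking both treatments together, all 4 arrays of 72 HAF lay above all 4 of 48 HAF for 6 of the 7 probe sets and below them for Ta.27777.1.S1_at. This comparison was added after the values had been seen. Of all probe sets, 4.90% were higher and 7.31% lower in that way. LOC543213 averaged 3.58 ± 0.14 (SD, n = 4) at 48 HAF and 4.79 ± 0.66 (n = 4) at 72 HAF, and LOC100125692 4.92 ± 0.099 and 7.27 ± 1.55. The difference was 1.21 for LOC543213 and 2.35 for LOC100125692 (3.32 without Ta.27777.1.S1_at). With control 72 HAF replicate 1 left out these were 1.498 and 3.16, and with drought 72 HAF replicate 2 left out 1.32 and 2.67. The spread at 72 HAF was several times that at 48 HAF for both genes, with control 72 HAF replicate 1 at the low end.

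Drought against control at 72 HAF did not separate the groups for 6 of the 7 probe sets. The mean of LOC543213 was 5.15 ± 0.33 under drought and 4.43 ± 0.82 in watered seeds (n = 2 each), 0.72 apart, and that of LOC100125692 7.80 ± 0.90 and 6.75 ± 2.30, 1.05 apart. For LOC100125692 the pooled SD of 1.74 exceeded the difference, which was 1.56 without Ta.27777.1.S1_at. The exception was Ta.160.2.S1_x_at, whose drought arrays (7.33 and 7.32) lay 0.35 or more above the control arrays. Of all probe sets, 13% were higher without overlap, by any margin. Without control 72 HAF replicate 1 the difference was 0.14 for LOC543213 and -0.58 for LOC100125692, so the sign of the latter turned. Without control 72 HAF replicate 2 the differences were 1.30 and 2.67. Leaving out drought 72 HAF replicate 2 gave 0.95 and 1.68, and leaving out drought 72 HAF replicate 1 gave 0.49 and 0.41. The direction of LOC100125692 at 72 HAF therefore rested on which control array was kept.

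At 48 HAF the genes differed little between treatments, with small spread on both sides. LOC543213 was at 3.47 ± 0.068 under drought and 3.69 ± 0.091 in watered seeds (n = 2 each), a difference of -0.22. LOC100125692 was at 4.87 ± 0.024 and 4.97 ± 0.13, a difference of -0.10, or -0.11 without Ta.27777.1.S1_at. Drought arrays lay below control arrays without overlap for 3 of 7 probe sets, Ta.160.1.S1_x_at, Ta.160.2.S1_x_at and Ta.27777.1.S2_at, with differences of means of -0.30, -0.33 and -0.30, and above them for 0. Of all probe sets 15.4% were lower and 15.9% higher in that way, and the median difference was -0.09 over the 7 and 0.0022 over all.

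Between 24 and 48 HAF in watered seeds, the means depended on control 24 HAF replicate 2. LOC543213 was at 4.48 ± 1.26 at 24 HAF and 3.69 ± 0.091 at 48 HAF, and LOC100125692 at 5.49 ± 0.75 and 4.97 ± 0.13 (n = 2 each). The differences of -0.79 and -0.52 became 0.10 and 0.01 without that array. With all arrays but without Ta.27777.1.S1_at the difference of LOC100125692 was -1.07. With the other 24 HAF array alone, LOC543213 read 3.59, against 3.62 and 3.75 on the control 48 HAF arrays. LOC100125692 read 4.96 there, between the 4.88 and 5.07 of the control 48 HAF arrays. Groups without overlap were found for Ta.160.2.A1_at and Ta.27777.1.S2_s_at (lower at 48 HAF) and Ta.27777.1.S1_at (higher), where 15% of all probe sets were lower and 9.86% higher in that way.

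Ordered by mean level, LOC543213 was highest in drought 72 HAF seeds, then in control 24 HAF, control 72 HAF, control 48 HAF and drought 48 HAF seeds. LOC100125692 had control 72 HAF before control 24 HAF and otherwise the same order. The places of control 24 HAF and control 72 HAF rested on single arrays. Control 24 HAF replicate 1 alone, at 3.59 and 4.96, lay between the means of the 48 HAF groups for both genes, and control 72 HAF replicate 2 alone read 8.37 for LOC100125692, above the drought 72 HAF mean of 7.80. Neighbours at the upper end overlapped for both genes. Control 72 HAF and control 48 HAF were apart by 0.10 for LOC543213, and the drought 48 HAF arrays lay below the control 48 HAF arrays by 0.11. For LOC100125692 the arrays of the 2 groups of 48 HAF overlapped.

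In the fit across all 61179 probe sets by limma, which moderates each probe set's variance by that of the others, 0 had a Benjamini-Hochberg adjusted p under 0.05 in any of the 6 comparisons (0% called), the 7 probe sets included. An unadjusted p under 0.05 was found for 82 probe sets for drought against control at 48 HAF, 252 at 72 HAF, 907 for control 48 against 24 HAF, 187 for control 72 against 48 HAF, 2470 for drought 72 against 48 HAF and 2298 for 72 against 48 HAF over both treatments. Each of these counts was below 0.05 of the 61179 probe sets, the share that would pass this threshold if no probe set differed. With 2 arrays against 2, an exact permutation test of a single value cannot give a two-sided p below 0.333.

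**Figure D3:**
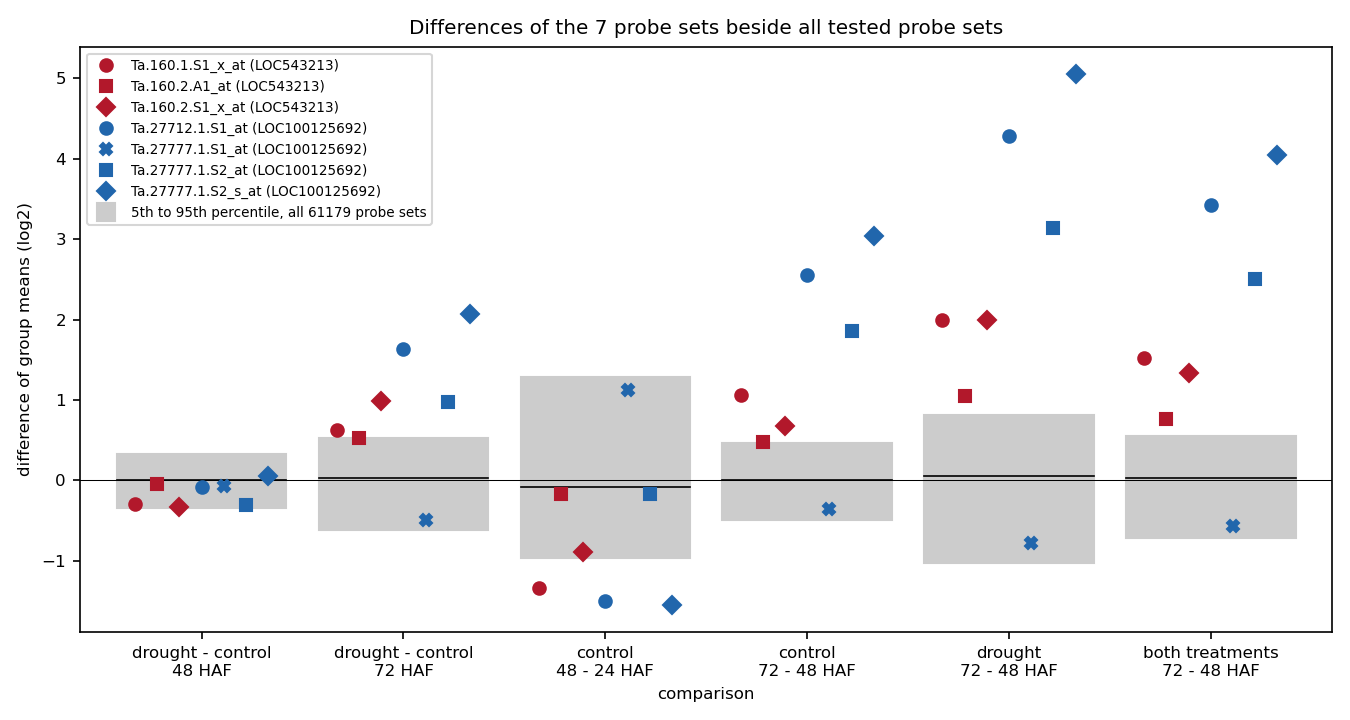
Difference of group means in log2 units (y axis) for each of the 7 probe sets in 6 comparisons (x axis), red for LOC543213 and blue for LOC100125692; grey boxes span the 5th to the 95th percentile of all 61179 probe sets and black lines mark their median. The points are highest for drought 72 against 48 HAF, up to 5.06 for Ta.27777.1.S2_s_at, and lie near 0 for drought against control at 48 HAF.

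The genes resembled each other across arrays. Their levels correlated at r = 0.861 over 10 arrays and 0.979 over the 9 arrays without control 24 HAF replicate 2, or 0.908 and 0.986 without Ta.27777.1.S1_at. Between single probe sets of the 2 genes, leaving out Ta.27777.1.S1_at and that array, r lay between 0.879 and 0.993. All points share the arrays and their scaling, so these values describe the arrays and carry no p.

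Among other annotated genes, the profile most like that of LOC543213 over 10 arrays was LOC542996 (wci, r = 0.989). It was followed by LOC542955 (0.973), the genes LOC543286 (0.969) and LOC543281 (0.966), both with the synonym ATI, the common short form for the alpha-amylase and trypsin inhibitors of the grain, and the gamma-gliadin LOC543214 (0.964). For LOC100125692 the closest were LOC542918 (0.991), the alpha-amylase inhibitor LOC542981 (WMAI-1, 0.990), LOC543308 (0.987), LOC732704 (0.986) and LOC780582 (0.986). LOC780582 has the synonym avnla, an a-type avenin-like gene. Over 9 arrays, 2 of the 5 genes stayed on the list for LOC543213 (LOC542996 and LOC542955) and 1 of 5 for LOC100125692 (LOC542981). The list for LOC100125692 also depended on Ta.27777.1.S1_at. Without it, the closest over 10 arrays were LOC732704 (0.992), the gliadin LOC543210 (0.992), LOC543265 (0.991), LOC100125699 (0.990) and LOC542918 (0.989). LOC542981 and LOC780582 then correlated at 0.987 and 0.965. The unnamed genes have no synonym in the gene table.

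The other 9 seed storage protein and inhibitor genes found by name on the annotated part of the array were also low on control 72 HAF replicate 1. Genes without a matching name were not listed. All 9 read lower on control 72 HAF replicate 1 than on the other 72 HAF arrays, as did 6 of the 7 probe sets described here and 12118 of all 61179 probe sets. With all 4 arrays of 72 HAF, 0 of the 9 lay above all 4 of 48 HAF, against 4.90% of all probe sets. Leaving out control 72 HAF replicate 1, the other 3 arrays of 72 HAF lay above all 4 of 48 HAF for 8 of the 9. Control 72 HAF replicate 1 was set apart with the values known, and the share of all probe sets with this pattern was not counted. The count of 8 is therefore not read as a result. The exception, named after its values were seen, was LOC543385 (synonym gli-2), which read 1.98 on control 72 HAF replicate 2 and 2.14 on control 48 HAF replicate 2. Gliadin LOC543211, a monomeric gluten protein gene, read 4.61 and 10.1 in control and 10.2 and 9.16 in drought seeds at 72 HAF, against 4.51 to 4.83 on the 4 arrays of 48 HAF. The avenin-like gene LOC780582 read 3.95 and 8.43 in control and 8.58 and 6.30 in drought seeds at 72 HAF, against 3.65 to 4.39 at 48 HAF. On control 24 HAF replicate 2 LOC780582 read 4.82. The probe sets of LOC100125692 were unequal on that array, with Ta.27712.1.S1_at at 7.03 and Ta.27777.1.S2_s_at at 5.88. Ta.27777.1.S2_at read 3.29 and Ta.27777.1.S1_at 7.91 on it.

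Others among the brighter of these genes were the inhibitor genes LOC543286, LOC543281 and LOC542981 and the gliadin LOC543210. LOC543286 read 5.19 and 11.3 in control and 11.3 and 10.6 in drought seeds at 72 HAF, LOC543281 4.47 and 11.4 against 11.5 and 10.8. LOC542981 read 4.12 and 8.02 against 8.08 and 6.29, and LOC543210 3.11 and 8.94 against 8.96 and 8.18. Averaged over the 9 genes, the level was 3.42 on control 72 HAF replicate 1 and 7.16 to 8.20 on the other 3 arrays of 72 HAF. For drought 72 against 48 HAF, 9 of 9 were higher without overlap, against 23.3% of all probe sets. The median difference was 5.07 over the 9 and 0.06 over all. For control 72 against 48 HAF and for both treatments together 0 of 9 were higher without overlap, against 15.7% and 4.90% of all probe sets. Median differences were 2.55 and 3.81 over the 9, and 0.0015 and 0.03 over all. None of the genes listed for storage protein gene regulation (SPA, PBF and the like) or for protein folding in the endoplasmic reticulum was found by name on the annotated part, so 0 of each are described. Only whole symbols or synonyms were matched, so genes under other forms of these names, or without a synonym, may have been missed.

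Marker genes of seed tissues moved with these arrays in part. Of 5 genes listed under defence, the 3 thionins and LTP3 also read lowest, among the 72 HAF arrays, on control 72 HAF replicate 1. The thionins carry the synonyms Pur, Pur-A1, Pur-B1 or Pur-D1. They were listed under defence by name, and which seed tissue expresses them was not tested. LOC543413 (THI1.3) read 2.81 on that array and 9.85, 9.77 and 7.25 on the other 72 HAF arrays. LTP3 differed little, at 12.47 on that array and 12.70, 12.79 and 12.59 on the others. PR5 read 2.57 on that array and 2.17 to 3.35 on the others. The mean over the 5 genes listed under defence was 4.69 to 5.62 at 48 HAF and 5.56 to 9.49 at 72 HAF. Of the 2 endosperm markers, the starch synthesis gene AGP-S (LOC543299) read 9.58 on control 72 HAF replicate 1, 11.3 on control 72 HAF replicate 2, and 11.2 and 9.60 on the drought 72 HAF arrays. The granule-bound starch synthase gene waxy (LOC543395) read 10.7 to 10.8 on all 4. Profilin (LOC543315) lay at 12.4 to 12.6 on all 10 arrays. LOC100049018 lay at 13.9 to 14.1 except for 13.2 on control 24 HAF replicate 2. It has the synonym rbcl and is placed on chromosome 2D, and which Rubisco subunit it encodes was not checked. The part of tissue composition in the readings of the 2 genes was not tested, and in whole seeds fewer endosperm cells and less RNA per cell cannot be told apart.

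**Figure D4:**
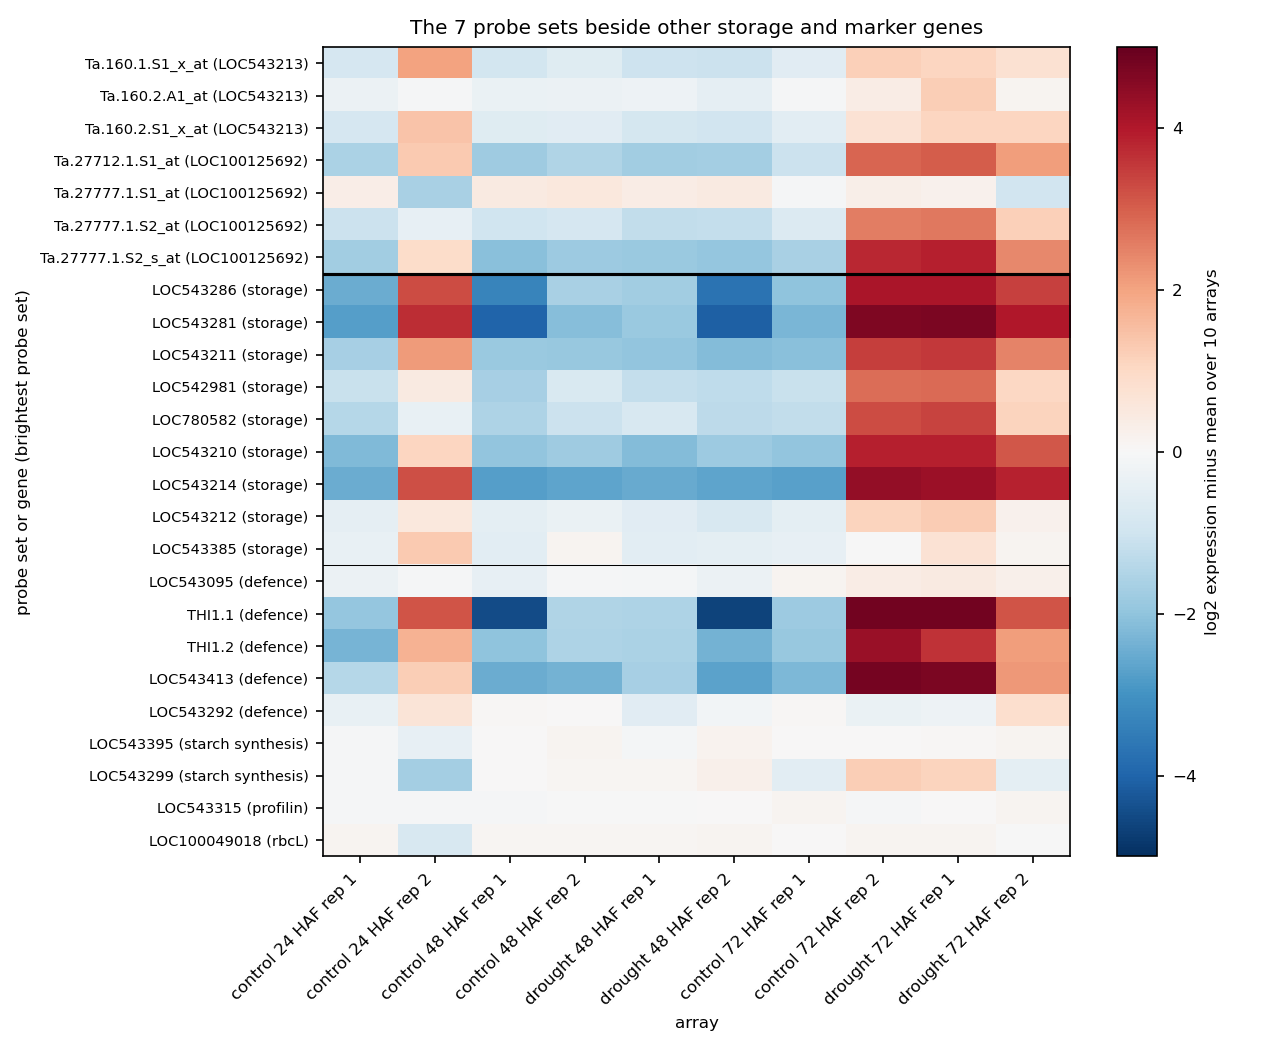
Log2 expression minus the mean over 10 arrays (colour) for the 7 probe sets (top), 9 other storage and inhibitor genes (middle) and 9 marker genes (bottom), each other gene by its brightest probe set, on the 10 arrays (columns). Control 72 HAF replicate 2, both drought 72 HAF arrays and control 24 HAF replicate 2 are red for most storage genes and thionins, and control 72 HAF replicate 1 is blue like the 48 HAF arrays.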

How the data were processed

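The authors deposited 1 log2 value per probe set and array, computed with affy and RMA per the submitters' processing notes, with versions and settings not given in the sources used here. RMA sets all arrays to a common distribution, so a reading is relative to the rest of its array. The values were used as deposited, with none missing. Array medians were 4.08 to 4.24, and 2 arrays per group limit the precision. The 111 control probe sets were left out and 61179 tested. Of these, 1273 carried 1 gene symbol, 0 several and 59906 none, and 770 of 771 genes matched the RefSeq table by Entrez identifier. Names come from its synonyms.

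The members and lists were chosen with earlier results of these data known. A gene's level is the mean over its probe sets, and each listed gene is given by its brightest probe set. Named genes were all members, the 5 annotated genes closest by Pearson r, and 6 storage genes by mean level. Differences were fitted with limma 3.58.1 in R 4.3.3 over all 10 arrays (1 mean per group, a variance trend on intensity, residual degrees of freedom 5, prior 3.59, Benjamini-Hochberg threshold 0.05), a step tested on simulated data. Its p-values reflect only how much the arrays of a group varied, which may be technical. Alternatives were the replicate block, no trend, quantile normalization, a filter or floor on low values, other probe set summaries and each array left out.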

Additional observations from a re-analysis of the deposited data

Results flagged for a closer look

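For the glutenin probe set Ta.160.2.S1_x_at, drought minus control was -0.33 at 48 HAF and 0.99 at 72 HAF on the log2 scale. Both drought arrays lay below both control arrays at 48 HAF and above both at 72 HAF. Of all probe sets, 15.4% were lower without overlap at 48 HAF and 13% higher at 72 HAF. The share with both was not counted. The difference between the times was not tested, because the probe set was chosen with these values known. Without control 72 HAF replicate 1 the reading of drought over the remaining control array at 72 HAF was 7.33 and 7.32 against 6.97.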

How the results depend on the processing

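With each gene's brightest probe set in place of the mean, which for LOC100125692 is Ta.27777.1.S1_at, its difference turned to 1.13 for control 48 against 24 HAF, -0.36 for control 72 against 48 HAF, -0.77 for drought 72 against 48 HAF and -0.57 for 72 against 48 HAF over both treatments. Its difference for drought against control at 72 HAF turned as well, to -0.49, within 1 pooled SD (1.74) of the reported value. LOC543213 then gave -0.33 for drought against control at 48 HAF and 1.99 for drought 72 against 48 HAF. With the median over probe sets, drought 72 against 48 HAF gave 1.99 for LOC543213 and 4.67 for LOC100125692, whose other moved values were -1.52 for control 48 against 24 HAF and 3.73 over both treatments. With values floored at the array median, LOC543213 gave -0.12 for drought against control at 48 HAF, 0.86 for drought 72 against 48 HAF and 0.61 over both treatments, and LOC100125692 2.24 for drought 72 against 48 HAF. Leaving out Ta.27777.1.S1_at, chosen after seeing the data, gave -1.07 for control 48 against 24 HAF and 4.16 for drought 72 against 48 HAF. In 38 such recalculations, that sign change and quantile normalization included, the differences moved by less than 1 pooled SD. With the replicate number as a block, limma called 0 probe sets in each of the 6 comparisons, as without it. The replicate numbers were not taken as pairing the arrays, since replicate differences correlated between groups at -0.518 to 0.586, so the block tests only a shared number. Without the trend, after quantile normalization and with the filter the counts were also 0. With 1 array left out, the counts ran from 0 to 25621 for control 48 against 24 HAF (without control 24 HAF replicate 1), from 0 to 2 for drought against control at 48 HAF, control 72 against 48 HAF and both treatments together, and stayed at 0 for drought against control at 72 HAF and drought 72 against 48 HAF. A lone array is then assumed to vary like the other groups. Such refits changed the sign of the gene differences for control 48 against 24 HAF (LOC543213 -1.69 to 0.10, LOC100125692 -1.05 to 0.01) and for drought against control at 72 HAF (LOC100125692 -0.58 to 2.67). The cause was not tested.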
